A study of Mus musculus with 6 samples.

Results

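The set described here is 10 genes of signals that fibroblasts secrete to leukocytes: the chemokine genes Ccl2, Ccl5, Ccl7, Ccl8, Ccl9, Cxcl1, Cxcl5, Cxcl10 and Cxcl12, and Csf1, the gene of macrophage colony-stimulating factor. The 10 genes were taken by symbol from a table of 55471 Ensembl genes. The list was chosen with earlier results of these data known. All 10 were found, and 8 of them passed the filter on low counts, as did 15454 genes of the table in all. The cells were 10T1/2, a mouse embryonic fibroblast line, grown in serum-containing medium with no treatment before RNA was taken. The tested libraries carry the genotype label Ranbp2 KO (3 libraries) and were set against WT libraries (3 libraries) of the same line; the knockout was made with CRISPR/Cas9, and the submitters checked the loss by qPCR, western blot and staining. The number of clones behind the knockout, the culture dates and any batch are not stated. The replicates are called biological, without saying whether they were separate cultures, and every p-value here reflects the variation among these 6 libraries.

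Chemokines are small secreted proteins that guide the migration of leukocytes through G protein-coupled receptors. They are grouped by the spacing of their first cysteines into the CC class, which mainly attracts monocytes and lymphocytes, and the CXC class, in which CXCL1 and CXCL5 attract neutrophils through CXCR2. Fibroblasts make some of them at rest, above all CXCL12, and raise others such as CCL2 and CXCL1 when NF-kB or related factors are activated by inflammatory signals. CSF1 is the main growth and survival factor of macrophages, and fibroblasts are one of its sources.

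The libraries labelled Ranbp2 KO held 32072817 to 39378190 expected counts and the WT libraries 41354198 to 46321967. Ranbp2 itself had 288.9 to 294.0 CPM (counts scaled to library size) in KO-labelled and 219.8 to 250.1 CPM in WT libraries, a log2 difference of 0.28 (95% interval 0.12 to 0.45). The mRNA count therefore does not show the knockout, and the libraries are called KO-labelled throughout. Of 10 fibroblast markers, 9 reached 1 CPM in a group and Lum did not. Fn1, the gene of fibronectin, was highest, at 14521 ± 2738 CPM in KO-labelled and 5864 ± 269 CPM in WT libraries. By edgeR, 5 of the 10 were higher, 2 lower and 3 did not pass, against 17.6% and 21.3% of all genes tested. The higher ones included Fn1 (log2 difference 1.31) and Lum (2.23, on 87 and 22 counts over the KO-labelled and WT libraries). The summed markers of macrophages were at 5.51 to 6.31 CPM in KO-labelled and 8.29 to 8.73 CPM in WT libraries, with Adgre1 at 0 and Cd14 highest (2.70 ± 0.171 and 6.04 ± 0.584 CPM). Of the 4 macrophage markers tested, Cd14 was lower, Lyz2 was higher (0.780 ± 0.0706 and 0.292 ± 0.0491 CPM, log2 difference 1.41, adjusted p = 0.00475 by edgeR) and 2 did not pass. Markers of T cells summed to 0.131 to 0.192 and 0.0435 to 0.145 CPM, with Cd2 at 0 and Lck highest, at 0.0684 ± 0.0529 and 0.0547 ± 0.0610 CPM. Markers of neutrophils summed to 0.703 to 1.30 and 0.423 to 0.769 CPM, with Mpo, Ngp and S100a9 at 0 and Cxcr2 highest. Endothelial markers summed to 27.5 to 31.2 CPM in KO-labelled and 36.5 to 41.2 CPM in WT libraries, mostly Tek (21.9 ± 1.88 and 37.1 ± 2.41 CPM). Of the 4 endothelial markers tested, Tek was lower, Vwf was higher and 2 did not pass. Vwf stood at 6.04 ± 0.879 CPM in KO-labelled and 0.270 ± 0.161 CPM in WT libraries (log2 difference 4.47, SE 0.33, adjusted p = 7.14e-06 by edgeR), with values that were not whole. Epithelial markers summed to 6.23 to 9.16 and 2.16 to 2.63 CPM, mostly Cdh1 (7.47 ± 1.47 and 2.22 ± 0.327 CPM), with Cldn4 at 0. Cdh1, the only epithelial marker tested, was higher (log2 difference 1.75, adjusted p = 7.21e-05 by edgeR). The part of these levels in the results that follow was not tested.

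Sequences from RefSeq (GRCm38.p6) are shown for the members with enough reads to test, so that their control regions can be compared beside their levels. The promoter table held 6 of the 10 members, Csf1, Ccl8, Ccl9, Cxcl1, Cxcl10 and Cxcl12; Ccl2, Ccl5, Ccl7 and Cxcl5 had no entry. The 250 bases before the annotated start are given 5′ to 3′ on the strand of the gene, for Csf1 (chr3:107760470-107760719, minus strand), Cxcl1 (chr5:90890995-90891244, plus strand), Ccl9 (chr11:83578637-83578886, minus strand) and Cxcl12 (chr6:117168285-117168534, plus strand). Capitals mark matches, on either strand, to an NF-kB motif (GGGNNNNNCC), an AP-1 motif (TGANTCA), an interferon response motif (GAAANNGAAA), a TATA box (TATAAA) or a STAT motif (TTCNNNGAA), and neighbouring matches may overlap.
Csf1: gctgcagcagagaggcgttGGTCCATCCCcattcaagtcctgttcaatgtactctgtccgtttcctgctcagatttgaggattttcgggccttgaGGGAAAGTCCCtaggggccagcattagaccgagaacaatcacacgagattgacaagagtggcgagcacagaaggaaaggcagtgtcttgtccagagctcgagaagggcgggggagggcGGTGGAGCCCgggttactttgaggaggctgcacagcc
Cxcl1: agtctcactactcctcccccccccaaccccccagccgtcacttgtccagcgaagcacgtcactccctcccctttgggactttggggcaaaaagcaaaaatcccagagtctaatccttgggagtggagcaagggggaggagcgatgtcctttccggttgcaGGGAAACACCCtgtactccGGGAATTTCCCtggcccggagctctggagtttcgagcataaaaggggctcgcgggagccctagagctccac
Ccl9: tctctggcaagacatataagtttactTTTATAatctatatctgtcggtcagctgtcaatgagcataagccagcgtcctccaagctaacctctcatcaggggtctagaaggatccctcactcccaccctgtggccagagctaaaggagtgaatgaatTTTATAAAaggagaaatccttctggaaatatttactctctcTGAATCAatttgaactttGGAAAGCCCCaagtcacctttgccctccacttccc
Cxcl12: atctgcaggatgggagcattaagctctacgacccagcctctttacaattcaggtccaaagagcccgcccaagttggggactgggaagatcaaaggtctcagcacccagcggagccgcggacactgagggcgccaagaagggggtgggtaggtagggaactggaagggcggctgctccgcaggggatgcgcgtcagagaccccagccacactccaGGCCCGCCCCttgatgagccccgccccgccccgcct

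The NF-kB motif matched at 3 separate places before Csf1, at 2 before Cxcl1, at 2 before Cxcl10, at 1 before Ccl9, at 1 before Cxcl12 and at 0 before Ccl8. The motif is loose, since 45.8% of 32851 promoter windows of the same length held a match. An AP-1 match stood before Ccl9 and before Cxcl10, as in 6.75% of windows, and an interferon response match before Cxcl10, as in 2.98% of windows. TATA box matches stood before Ccl8, at bases -32 to -27 from the annotated start, and before Ccl9 (12.4% of windows). The Ccl9 matches began further away, at -224 and -94 on the opposite strand and at -92 on the strand of the gene. No STAT match was found before any of the 6 (7.02% of windows). The Cxcl12 window had the highest GC content of the 6, 64.4%, and Ccl9 the lowest, 43.6%, against a median of 52.4% over all windows. A match is a description of letters and not of binding.

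The ends of these mRNAs were compared too, because AU-rich stretches in the 3′ untranslated region are known to shorten the life of cytokine transcripts. Shown are the 30 bases richest in the pentamer ATTTA (capitals) after the stop codon, from GENCODE M21 transcripts, for the neutrophil attractant Cxcl1, the monocyte attractants Ccl2 and Ccl7, and Csf1. The windows begin 82, 26, 163 and 2026 bases after the stop codon in that order.
Cxcl1: gtcctATTTATTTAtgtATTTATTTAttcc
Ccl2: taatattaaacttATTTAacttattgatgt
Ccl7: tattaatatttttATTTAattagccatgta
Csf1: taaggtcATTTAaatatctATTTAaaaaat
Cxcl1 carried 7 such pentamers in 592 bases, or 11.8 per kb, and 2 copies of the nonamer TTATTTATT, which 8.58% of 12577 genes carried. No other member had the nonamer. The remaining members ranged from 0 ATTTA per kb in Ccl5 and Ccl8 to 4.60 in Ccl7, with 0.771 in Cxcl12 and 1.89 in Csf1, against a median of 1.35 over these genes.

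Of the 8 members tested, 4 were lower and 2 higher in KO-labelled libraries by edgeR's quasi-likelihood test at an adjusted p below 0.05, and 2 did not pass. Csf1, Ccl2, Ccl7 and Cxcl5 fell, and Cxcl12 and Ccl9 rose. Among all genes tested, 38.9% were called, 21.3% lower and 17.6% higher, so calls were common in this comparison. The values of the groups did not overlap for 6 of the 8 members, 2 above WT and 4 below, against 51.4% of all genes tested, 24.6% above WT and 26.8% below. A call of at least 2-fold was made for 2 members, Ccl7 and Cxcl5, and for 10.1% of genes. The median log2 difference was -0.52 over the 8 members and 0.01 over all genes. In bulk RNA, fewer cells that make a transcript and less transcript per cell cannot be told apart.

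**Figure D1:**
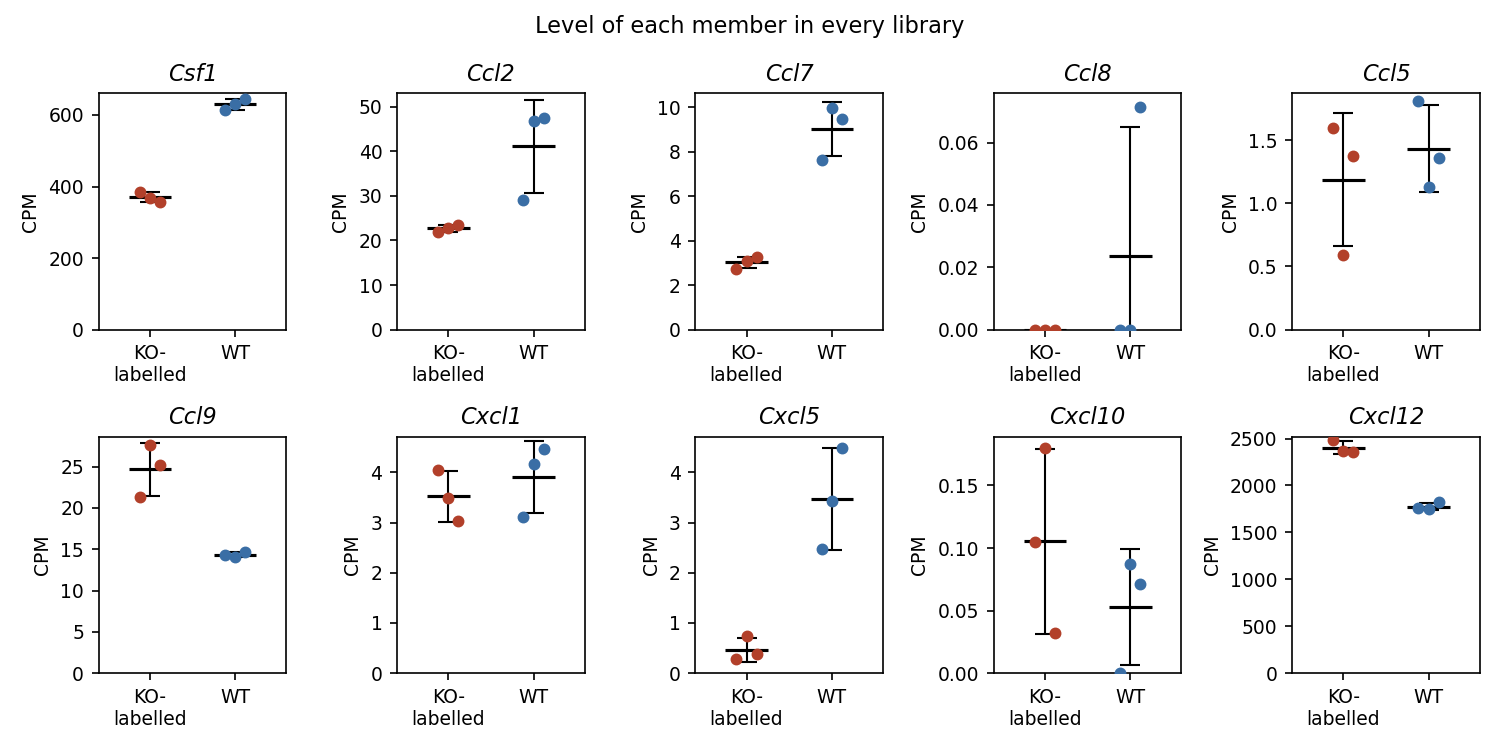
Level of each of the 10 members in CPM (y axes, each from 0), with 1 point per library, KO-labelled on the left and WT on the right; lines are means and bars 1 SD of 3 libraries. KO-labelled points lie wholly below WT points for Csf1, Ccl2, Ccl7 and Cxcl5 and wholly above them for Ccl9 and Cxcl12.

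Csf1 (ENSMUSG00000014599, chromosome 3, 107741048 to 107760469, minus strand, GRCm38, protein coding) had 384.7, 367.2 and 357.3 CPM in KO-labelled libraries, against 612.8, 631.9 and 644.4 CPM in WT libraries. The groups lay far apart compared with the spread inside each. The log2 difference was -0.77 (SE 0.07, 95% interval -0.93 to -0.61) with an adjusted p of 2.68e-05 by edgeR. Secreted and membrane-anchored forms of CSF1 come from alternative transcripts, which a count per gene does not separate.

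Ccl2 (ENSMUSG00000035385, chromosome 11, 82035571 to 82037453, plus strand) encodes MCP-1, the principal attractant of monocytes through CCR2. It stood at 21.8, 22.9 and 23.5 CPM in KO-labelled libraries, against 29.1, 46.7 and 47.4 CPM in WT libraries. The WT libraries spread over 1.63-fold, with replicate 1 well below the other two, and still did not reach the KO-labelled values. The log2 difference was -0.86 (SE 0.16, 95% interval -1.22 to -0.49), adjusted p = 0.00251. A gene model on the opposite strand, Gm17268, overlaps Ccl2 and had 0 counts in all 6 libraries.

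Ccl7, the gene of MCP-3, lies next to Ccl2 (ENSMUSG00000035373, chromosome 11, 82045712 to 82047525, plus strand) and also acts on monocytes. Its levels were 2.74, 3.08 and 3.26 CPM in KO-labelled libraries, against 7.64, 9.97 and 9.46 CPM in WT libraries. No value of one group came near the other. The log2 difference was -1.58 (SE 0.14, 95% interval -1.90 to -1.26), adjusted p = 2.55e-05.

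Cxcl5 (ENSMUSG00000029371, chromosome 5, 90759360 to 90761624, plus strand), which in mouse encodes the neutrophil attractant LIX, had the greatest fall of the 8. Its levels were 0.281, 0.734 and 0.383 CPM in KO-labelled libraries, against 2.47, 3.44 and 4.49 CPM in WT libraries. These rest on 51.3 expected counts over the KO-labelled and 449.7 over the WT libraries. The log2 difference was -2.86 (SE 0.35, 95% interval -3.65 to -2.07), adjusted p = 0.000191. Values that were not whole occurred in 3 libraries, a sign that RSEM divided some reads with another gene.

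Cxcl12 (ENSMUSG00000061353, chromosome 6, 117168535 to 117181367, plus strand), the ligand of CXCR4 that retains progenitor cells in their niches, was the most abundant member. It had 2479.7, 2372.9 and 2353.9 CPM in KO-labelled libraries, against 1759.7, 1748.1 and 1819.4 CPM in WT libraries. The difference was small in fold terms and well outside the spread, with a log2 difference of 0.44 (SE 0.08, 95% interval 0.25 to 0.62) and an adjusted p of 0.00258 by edgeR. Genes of chromosome 6 had a median log2 difference of 0.17, and 22 other tested genes within 1 Mb of Cxcl12 had a median of 0.25. Of these 22 genes, 8 were higher and 3 lower, against 17.6% and 21.3% of all genes tested.

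Ccl9 (ENSMUSG00000019122, chromosome 11, 83572919 to 83578636, minus strand) encodes MIP-1 gamma, a mouse ligand of CCR1 also made by osteoclasts and myeloid cells. It stood at 21.3, 27.6 and 25.2 CPM in KO-labelled libraries, against 14.3, 14.1 and 14.7 CPM in WT libraries. All KO-labelled values lay above the tight WT group. The log2 difference was 0.78 (SE 0.10, 95% interval 0.56 to 1.00), adjusted p = 0.000215. Its counts were not whole in any of the 6 libraries, so part of its reads was shared with another gene and its level is uncertain.

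The remaining members showed no difference that passed the test. Cxcl1, which lies on chromosome 5 (90891241 to 90893115, plus strand), gave 4.05, 3.49 and 3.03 CPM in KO-labelled libraries, against 3.11, 4.16 and 4.47 CPM in WT libraries. The groups overlapped, with a log2 difference of -0.15 (95% interval -0.56 to 0.26), adjusted p = 0.555. Ccl5, the gene of RANTES (chromosome 11, 83525778 to 83530518, minus strand), stood at 1.59, 0.591 and 1.37 CPM in KO-labelled libraries, against 1.81, 1.13 and 1.36 CPM in WT libraries. Its log2 difference was -0.27 (95% interval -1.06 to 0.51), adjusted p = 0.573, and it was 0.054 without KO-labelled replicate 2, where Ccl5 was lowest. Both intervals include 0 and differences up to their bounds.

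Cxcl10 and Ccl8 were too scarce to test. Cxcl10, an interferon-induced ligand of CXCR3 (chromosome 5, 92346638 to 92348889, minus strand), had 4, 7 and 1 counts in KO-labelled libraries, against 0, 4 and 3 counts in WT libraries. The ratio of the summed counts was 2.05 with a 95% counting interval of 0.742 to 6.13, which includes no difference. It lies inside Art3, a gene of the opposite strand with 3 and 2 counts over the KO-labelled and WT libraries. Ccl8, the gene of MCP-2 (chromosome 11, 82115185 to 82116799, plus strand), had 0 counts in each KO-labelled library, against 0, 0 and 3 counts in WT libraries, so both groups were at or under the floor of 3 counts over a group.

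**Figure D2:**
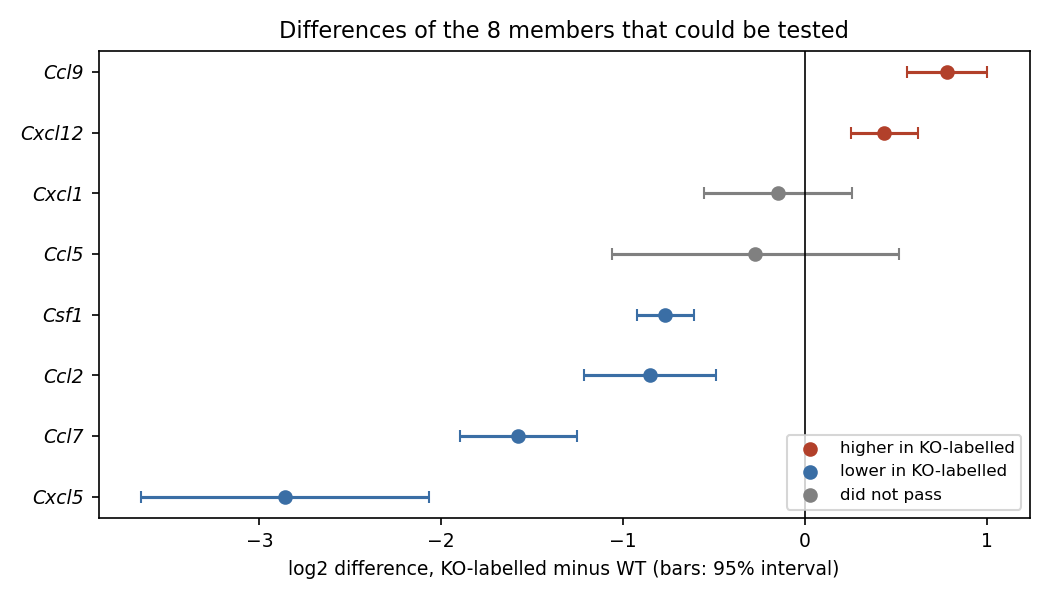
Log2 difference, KO-labelled minus WT (x axis), of the 8 members tested, with 95% intervals from the edgeR fit. Intervals for Ccl9 and Cxcl12 lie above 0, those for Csf1, Ccl2, Ccl7 and Cxcl5 below 0, and those for Cxcl1 and Ccl5 across 0.

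To set the members against each other, CPM was divided by the length of the merged exons of each gene. Cxcl12 came first in both groups, at 293.8 ± 8.29 CPM per kb in KO-labelled and 217.2 ± 4.68 in WT libraries, the 127th and 188th highest of 15454 genes. Csf1 followed at 70.0 ± 2.62 and 119 ± 3.01 CPM per kb, 613th and 357th. Ccl2 was next, at 19.97 ± 0.747 and 36.1 ± 9.13 CPM per kb. Below it the order differed between the groups: Ccl9 stood above Ccl7 in KO-labelled libraries (8.11 ± 1.05 and 3.78 ± 0.328 CPM per kb), and Ccl7 above Ccl9 in WT libraries (11.3 ± 1.53 and 4.72 ± 0.0997). Ccl9 and Ccl7 did not overlap within either group. Cxcl1 and Ccl5 overlapped in the KO-labelled libraries, at 1.88 ± 0.270 and 1.24 ± 0.549 CPM per kb, and Cxcl5 lay under them at 0.250 ± 0.128. In WT libraries Cxcl1, Cxcl5 and Ccl5 overlapped, at 2.09 ± 0.380, 1.86 ± 0.542 and 1.49 ± 0.359 CPM per kb. Cxcl10 and Ccl8 were last, under 0.1 CPM per kb in every library of the KO-labelled group.

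The sum over the members depended on Cxcl12. All 10 summed to 2828 ± 78.2 CPM in KO-labelled and 2479 ± 59.8 CPM in WT libraries, whereas the 9 without Cxcl12 summed to 425.4 ± 11.2 and 703.0 ± 28.6 CPM. Both differences had p = 0.1 by an exact two-sided permutation test, the smallest that 3 against 3 libraries allow. The 8 chemokines without Cxcl12 and Csf1 summed to 55.7 ± 3.48 CPM in KO-labelled and 73.4 ± 13.0 CPM in WT libraries (exact permutation p = 0.2), and the groups overlapped.

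Ratios of members within a library do not depend on how libraries are scaled. The ratio of Cxcl12 to Csf1 counts was 6.45, 6.46 and 6.59 in KO-labelled libraries, against 2.87, 2.77 and 2.82 in WT libraries. The 2 groups were more than 1 unit apart on the log2 scale, at a difference of 1.20. The ratio of Ccl7 to Ccl2 was 0.126, 0.135 and 0.139 in KO-labelled libraries. In WT libraries it was 0.263, 0.213 and 0.200, above every KO-labelled value. The ratio of Cxcl5 to Cxcl1 was 0.0694, 0.210 and 0.126 in KO-labelled libraries, against 0.796, 0.827 and 1.005 in WT libraries. The ratio of Ccl9 to Ccl5 was 13.4, 46.8 and 18.3 in KO-labelled libraries, against 7.89, 12.5 and 10.9 in WT libraries, and its log2 difference of 1.14 was 0.61 without KO-labelled replicate 2. None of the 4 ratios overlapped between groups. Each had an exact two-sided permutation p of 0.1, the smallest possible, also after adjustment over the 4 pairs. For Cxcl12 to Csf1 the separation was already set by the levels, which did not overlap and differed in opposite directions. The ratios use the same counts as the calls of the members.

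**Figure D3:**
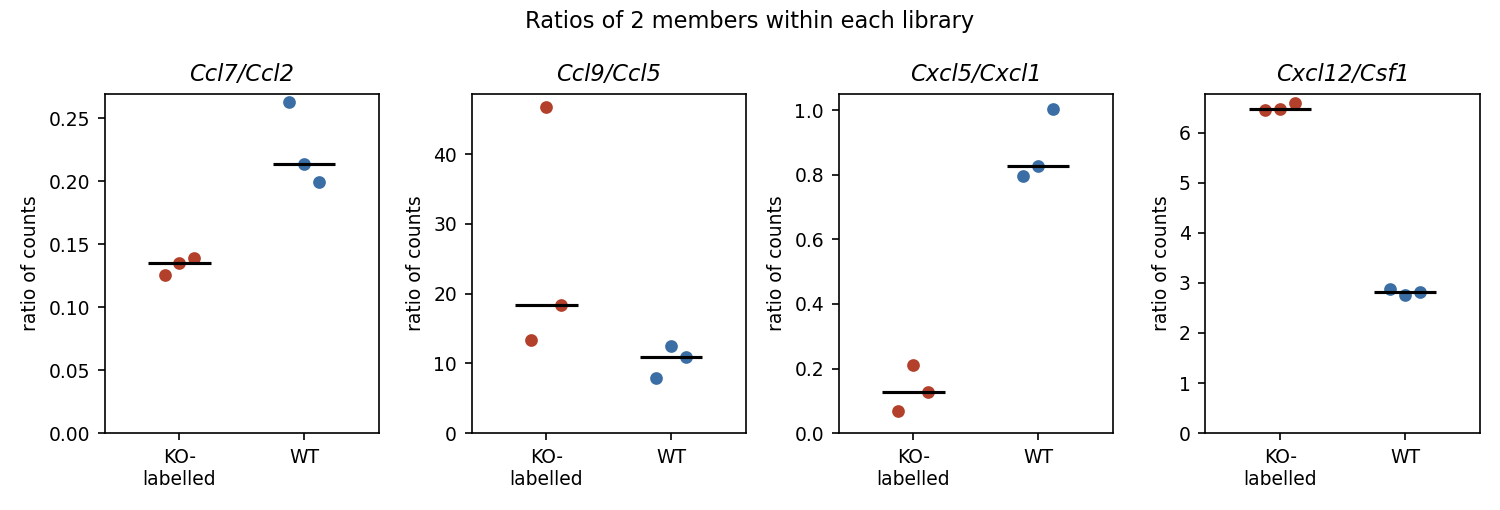
Ratio of the expected counts of 2 members in each library (y axes from 0), KO-labelled on the left and WT on the right, with the median of 3 libraries as a line. Cxcl12/Csf1 and Ccl9/Ccl5 are higher, and Ccl7/Ccl2 and Cxcl5/Cxcl1 lower, in every KO-labelled library.

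Several members lie in gene clusters, and their neighbours were read in the same way. Beside Ccl2, Ccl7 and Ccl8 on chromosome 11, Ccl1, Ccl11 and Ccl12 had 0 counts in all libraries. In the cluster of Ccl5 and Ccl9 on the same chromosome, Ccl6 (83587882 to 83593087, minus strand), the gene of a mouse CCR1 ligand close to Ccl9 in sequence and position, was 3.07 higher on the log2 scale (SE 0.54, adjusted p = 0.00157). This rests on 44 counts over the KO-labelled and 6 over the WT libraries. Ccl3 had 2 and 0 counts and Ccl4 had 0 and 1 over the KO-labelled and WT libraries. Between Cxcl5 and Cxcl1 on chromosome 5, Pf4 had 0 counts, Cxcl3 had 1 and 0, Cxcl15 had 2 and 0, and Ppbp, a platelet chemokine gene, had 2 and 11 counts over the KO-labelled and WT libraries. Cxcl2, beside Cxcl1, had 7 counts in each group. The interferon-induced neighbours of Cxcl10 were as scarce, with 4 and 17.0 counts for Cxcl9 and 3 and 4 for Cxcl11.

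Other genes around the members did not share one direction. For comparison, 17.6% of all genes tested were higher and 21.3% lower. The median log2 difference over all tested genes was -0.07 on chromosome 11, 0.05 on chromosome 5 and 0.01 on chromosome 3. Of 9 other tested genes within 1 Mb of Ccl2, Ccl7 and Ccl8, 1 was higher and 1 lower, with a median log2 difference of 0.17. Of 28 around Ccl5 and Ccl9, 4 were higher and 4 lower (median 0.07). Of 9 around Cxcl5 and Cxcl1, 0 were higher and 3 lower (median -0.08), and of 30 around Csf1, 7 were higher and 4 lower (median 0.11). Around Cxcl10, 1 of 20 was higher and 5 were lower (median 0.06). The 22 around Cxcl12, given above, had 8 higher and 3 lower.

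**Figure D4:**
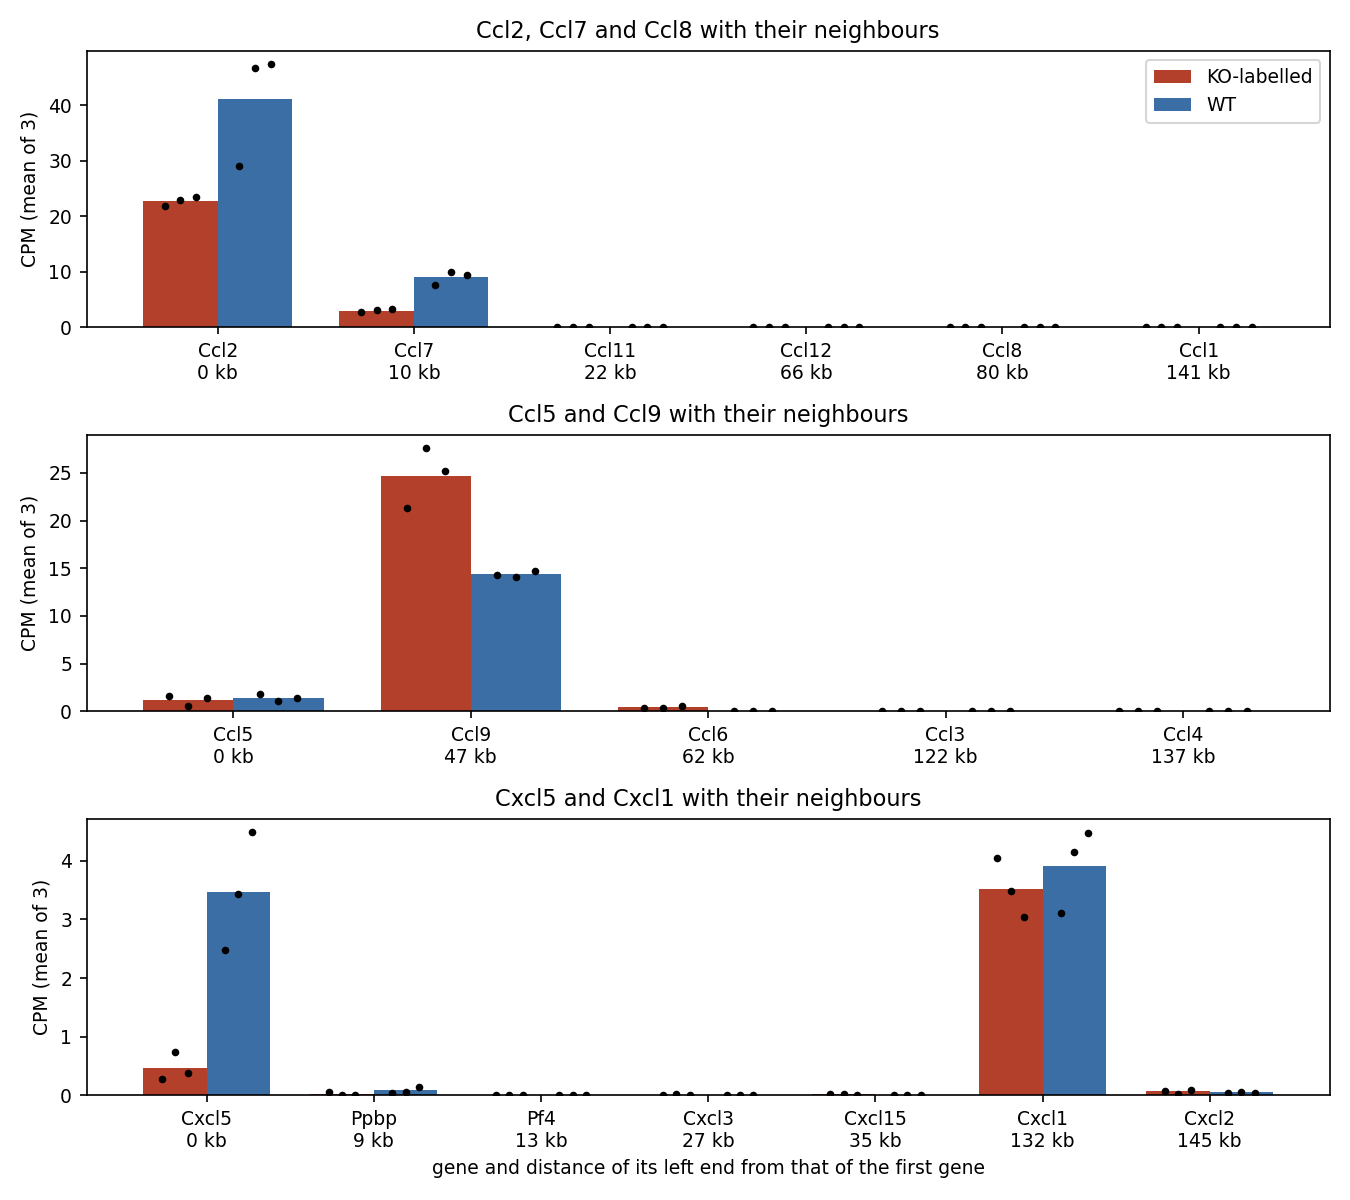
Mean CPM (bars, y axes from 0) and single libraries (points) of the chemokine genes in the clusters of Ccl2, Ccl5 and Cxcl5, in chromosomal order with the distance from the first gene in kb; KO-labelled bars stand left of WT bars. Ccl2, Ccl7, Ccl5, Ccl9, Cxcl5 and Cxcl1 hold nearly all of the signal, with small bars for Ccl6, Ppbp and Cxcl2.

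Among 29 other chemokine ligand genes, 19 had any count, 4 were tested, 2 were higher and 2 lower (median log2 difference -0.17). Shares over all genes tested were 17.6% higher and 21.3% lower, for this list, the receptors and the colony-stimulating factor list alike. Beside Ccl6, Ccl25, a thymic and gut chemokine, was higher at 11.3 ± 0.805 CPM in KO-labelled and 8.84 ± 1.07 CPM in WT libraries (log2 difference 0.35, adjusted p = 0.0375). That call was lost without KO-labelled replicate 1 (adjusted p = 0.0888) or 3 (0.119), and without WT replicate 1 (0.105) or 2 (0.119). Ccl25 values were also not whole in most libraries, so its level is uncertain. Cx3cl1, the gene of fractalkine, a membrane-bound attractant, was lower at 11.3 ± 0.489 and 18.2 ± 3.37 CPM (log2 difference -0.68, adjusted p = 0.00213). Cxcl16, another membrane-bound chemokine gene, was lower at 0.340 ± 0.0454 and 0.828 ± 0.164 CPM (adjusted p = 0.00845, but 0.0508 without WT replicate 2).

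Of 23 chemokine receptor genes, 7 were tested, 1 was higher, 0 lower and 6 did not pass (median log2 difference 0.19). Without WT replicate 3 there were 2 higher. Ccr2 and Cxcr3, the receptors of CCL2 and CXCL10, had 0 counts in every library, and Ccr1 had 1 count in each group. Cxcr4 stood at 1.505 ± 0.125 CPM in KO-labelled and 1.33 ± 0.243 CPM in WT libraries (log2 difference 0.18, adjusted p = 0.548). Ackr3, an atypical receptor that takes up CXCL12, was more abundant, at 24.98 ± 0.128 and 21.9 ± 1.57 CPM (log2 difference 0.19, adjusted p = 0.0679, but 0.0261 without WT replicate 3). The neutrophil receptor gene Cxcr1 was the receptor that rose, on 58 and 6 counts over the KO-labelled and WT libraries (log2 difference 3.44, SE 0.48, adjusted p = 0.000375). Cxcr2, the receptor of CXCL1 and CXCL5, stood at 0.931 ± 0.336 and 0.555 ± 0.159 CPM (adjusted p = 0.112), and its values were not whole, so its level is uncertain.

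In the colony-stimulating factor list, 6 of 11 genes were tested, 2 were higher, 2 lower and 2 did not pass (median log2 difference 0.15). Il34, the other ligand of the CSF1 receptor, was higher where Csf1 was lower, at 3.95 ± 0.325 CPM in KO-labelled and 0.986 ± 0.0722 CPM in WT libraries (log2 difference 2.00, SE 0.17, adjusted p = 1.86e-05). Ptprz1, a second receptor of IL-34, was lower at 0.0536 ± 0.0426 and 2.63 ± 0.382 CPM (log2 difference -5.50, SE 0.39, adjusted p = 4.91e-06). This rests on 1, 4 and 1 counts in KO-labelled libraries, against 98, 113 and 129 counts in WT libraries, and the log2 difference was -6.37 without KO-labelled replicate 2. Csf1r was scarce and had values that were not whole, at 0.553 ± 0.105 and 0.354 ± 0.0786 CPM (adjusted p = 0.146). Timp3, an inhibitor of sheddases, was lower at 1417 ± 16.6 and 3180 ± 243 CPM (log2 difference -1.17, adjusted p = 1.1e-05). Adam17, a sheddase of membrane-bound cytokines, was higher at 95.9 ± 3.12 and 81.9 ± 1.64 CPM (log2 difference 0.23, adjusted p = 0.0169). Its call was lost without KO-labelled replicate 2 (adjusted p = 0.0855) or 3 (0.0622) and without WT replicate 2 (0.102), which left 1 gene of the list higher.

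Over all genes tested, 21.3% were lower and 17.6% higher, the shares to set beside the protease and heparan sulfate lists. Of 16 protease genes that cut chemokines, 6 were tested, 4 were lower, 0 higher and 2 did not pass (median log2 difference -0.52). They were Anpep, an aminopeptidase, at 0.656 ± 0.269 CPM in KO-labelled and 5.79 ± 0.675 CPM in WT libraries (log2 difference -3.16, adjusted p = 1.19e-05), Furin (-0.67) and the matrix metalloproteinase genes Mmp2 (-0.66) and Mmp14 (-0.38). Of 24 genes of heparan sulfate, the cell surface sugar that holds chemokines, 19 were tested, 7 were lower, 2 higher and 10 did not pass (median -0.17). The count of lower genes was 3 without KO-labelled replicate 1 or 2 or WT replicate 1 or 2. Sulf2, a sulfatase that trims heparan sulfate, was lower at 47.0 ± 2.99 and 116 ± 6.73 CPM (log2 difference -1.31, adjusted p = 1.48e-06). Glce fell by 0.50 and the syndecan gene Sdc4 by 0.51 on the log2 scale, while the glypican gene Gpc6 rose by 0.70.

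A list of 26 genes held NF-kB, interferon regulatory and related transcription factors, with kinase subunits and inhibitors of NF-kB. Of these, 15 were lower, 1 higher and 10 did not pass (median log2 difference -0.36), against 21.3% and 17.6% of all genes. With 1 library left out, 10 to 14 were lower, and 12 with the replicate block. The NF-kB inhibitor genes Nfkbia (-0.57), Nfkbib (-0.47), Tnfaip3 (-0.41) and Tnip1 (-0.37) were among the lower genes, and Nfkbie did not pass. Rela, the gene of the p65 subunit of NF-kB, stood at 42.2 ± 0.888 CPM in KO-labelled and 74.8 ± 7.60 CPM in WT libraries (log2 difference -0.83, SE 0.08, adjusted p = 5.58e-05). Cebpd, which acts with NF-kB on inflammatory genes, was lower at 22.2 ± 1.96 and 67.6 ± 6.19 CPM (log2 difference -1.60, adjusted p = 1.62e-06), Cebpb by a log2 difference of -0.87 and Irf9 by -0.90.

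Of 26 receptors and adaptors that induce chemokines, 10 were lower, 5 higher and 11 did not pass (median log2 difference -0.18). The shares over all genes tested were 21.3% lower and 17.6% higher, for this list and the mRNA decay list alike. Tlr2, a sensor of bacterial lipoproteins, rose to 23.9 ± 0.609 CPM in KO-labelled libraries, against 9.53 ± 0.401 CPM in WT libraries (log2 difference 1.32, adjusted p = 1.3e-06), and the interleukin-1 receptor gene Il1r1 to 44.3 ± 0.751, against 22.3 ± 1.78 CPM (0.99). Myd88, the adaptor of both receptors, stood at 11.4 ± 1.15 and 19.2 ± 1.43 CPM (log2 difference -0.75, adjusted p = 0.000272), and Ripk1, a kinase of the TNF receptor complex, was lower by a log2 difference of -0.49. Of 11 genes of AU-rich mRNA decay, 3 were higher, 3 lower and 5 did not pass (median 0.13). Zfp36, the gene of tristetraprolin, which binds AU-rich nonamers such as those of Cxcl1, was lower at 9.87 ± 0.851 and 17.5 ± 1.22 CPM (log2 difference -0.82, adjusted p = 0.000137). Its relative Zfp36l2 rose by 0.43, N4bp1 fell by 0.33 and Rc3h1 rose by 0.30 (adjusted p = 0.0157, but 0.0864 without KO-labelled replicate 3).

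**Figure D5:**
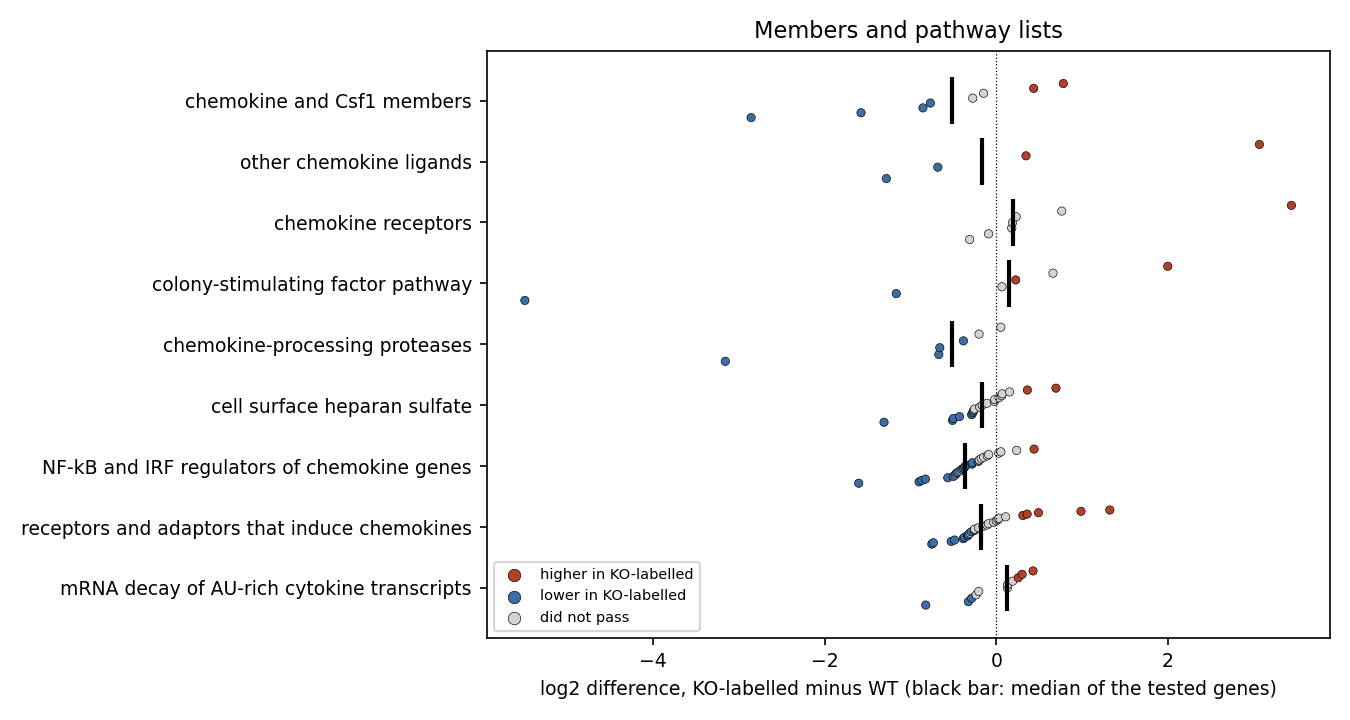
Log2 difference, KO-labelled minus WT (x axis), of every tested gene of the members and of the 8 pathway lists (rows), coloured by the edgeR call; black bars are list medians. The list of NF-kB and interferon regulatory genes lies mostly left of 0 with a median of -0.36. The chemokine receptor, colony-stimulating factor and mRNA decay lists have medians above 0.

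Spread inside the WT group was shared by some members. In WT replicate 1, Ccl2, Ccl7, Cxcl1, Cxcl5 and Csf1 were each at the lowest of their 3 WT values, and Ccl5 at its highest. The ratio of the highest to the lowest WT value was 1.63 for Ccl2, 1.30 for Ccl7, 1.44 for Cxcl1 and 1.82 for Cxcl5, but 1.05 for Csf1, 1.04 for Ccl9 and 1.04 for Cxcl12. With WT replicate 1 left out, the log2 difference of Ccl2 was -1.05, and all calls of the members were as before.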

How the data were processed

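The authors deposited expected counts per Ensembl gene, estimated with RSEM on GRCm38 after use of cutadapt, per the submitters' processing notes. No version, aligner or strand setting was found in the labels. Per the labels' protocols, polyA RNA was captured, prepared with the KAPA HyperPrep chemistry and run on a NextSeq500. Fractional values, 17.9% of the table, arise where RSEM splits a read between genes. Named genes with such values also include Adam17, Furin, Mmp14, Timp3, Sulf2, Cebpb, Cebpd, Irf9 and Zfp36.

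Counts were rounded, filtered with filterByExpr (minimum count 10, minimum total 15), scaled with TMM factors and tested with edgeR 4.0.16 (R 4.3.3; quasi-likelihood F test, two-sided, genotype as the only term) over all 15454 genes, with Benjamini-Hochberg adjustment. CPM uses TMM-scaled library sizes; errors are SD of 3 libraries, SE comes from the F statistic, and 95% intervals use its t distribution. Counting intervals are exact binomial and cover counting error only. Symbols matched 55144 identifiers; positions, exon lengths and transcripts are GENCODE M21 (GRCm38), promoters RefSeq. Single values were compared with exact permutation tests (SciPy 1.17.1). No pair of libraries agreed within sampling noise. The fit was tested on simulated counts. Alternatives were DESeq2 1.42.0, limma-voom (limma 3.58.1), other scalings and filters, a replicate block and leaving out each library.

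Members and lists were chosen with earlier results of these data known. Named genes are all members, up to 4 genes of each pathway list by adjusted p, the members' receptors and cluster neighbours, and the highest marker of each marker list. Lum, Lyz2, Vwf, Ptprc, Dcn, Col1a1, Ccl28, Nfkbia, Nfkbib, Nfkbie, Tnfaip3 and Tnip1 were named after their values were seen. Some genes that this rule names are not reported here.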

Additional observations from a re-analysis of the deposited data

How the results depend on the processing

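All 6 calls among the members (Csf1, Ccl2, Ccl7 and Cxcl5 lower, Cxcl12 and Ccl9 higher) kept their direction and an adjusted p below 0.05 in 13 alternatives: size factors from DESeq2, library size alone, the DESeq2 Wald test, limma-voom, no count filter, a filter at 1 CPM, the replicate block and leaving out each of the 6 libraries. Over these, the log2 difference ran from -3.38 to -2.59 for Cxcl5, from -1.69 to -1.50 for Ccl7, from -1.05 to -0.74 for Ccl2, from -0.80 to -0.74 for Csf1, from 0.69 to 0.88 for Ccl9 and from 0.40 to 0.46 for Cxcl12. Ccl5, which was not called, ran from -0.56 to 0.054 with 1 library left out and was positive without KO-labelled replicate 2 (adjusted p = 0.905); the cause was not tested. Deviations of same-numbered libraries correlated at -0.0512, -0.118 and -0.132, and those of differently numbered libraries at -0.0874 to 0.219. These values gave no sign that replicate numbers pair the samples. With 3 libraries per group they cannot exclude pairing or a shared batch. With the replicate block 2213 genes were higher and 2781 lower, against 2721 and 3290 without it, and Csf1 stood at -0.77 (adjusted p = 0.000604). Under the block, Adam17 did not pass (adjusted p = 0.0626) and 3 heparan sulfate genes were lower. Without a count filter, Adam17 (0.102) and Ccl25 (0.0503) did not pass; with the 1 CPM filter Ackr3 passed (0.0437), while Ccl6, Cxcl16, Cxcr1 and Cxcr2 were not tested, which left 1 other chemokine ligand higher and 1 lower in place of 2 and 2. Cxcl10 and Ccl8 had 19 and 3 counts in all, too few for the test, and the part of sequencing depth in this was not tested.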

Other observations

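Some chemokine genes outside the members had a few counts whose 95% counting interval left out equal levels, in both directions. Ppbp had 2 counts in the KO-labelled group and 11 in the WT group. Scaled to library size this is a ratio of 0.217 (95% counting interval 0.0234 to 0.994). Cxcl9 had 4 and 17.0 counts, a ratio of 0.281 (0.0687 to 0.861). Ccl28 had 5 counts in the KO-labelled group and 0 in the WT group, and the lower bound of its ratio was 1.09. None of the 3 was tested against the spread between libraries, which these intervals do not cover. The intervals are also not adjusted for the number of genes looked at. Of the 29 other chemokine ligand genes, 25 were not tested, 10 of them with 0 counts in all libraries. Ptprc, the gene of the leukocyte surface protein CD45, had 7 counts over the KO-labelled and 1 over the WT libraries. Dcn, the gene of the matrix proteoglycan decorin, stood at 19.5 ± 2.11 CPM in KO-labelled and 4.94 ± 0.845 CPM in WT libraries, and Col1a1, a chain of collagen I, at 4232 ± 339.7 and 5720 ± 833 CPM. The adjusted p by edgeR was 4.91e-06 for Dcn and 0.0249 for Col1a1. Both are fibroblast markers, and they differed in opposite directions between the groups. Of the 10 fibroblast markers, 5 were higher, 2 lower and 3 did not pass. The shares over all genes tested were 17.6% higher and 21.3% lower.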
